A study of Mus musculus with 4 samples.

Results

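The genes described here make cholesterol, sense it, move it within the cell, and take it up or export it. They were 30 genes chosen by name and known role, with earlier results of these data known. Of these, 28 were measured by a probe set that names them alone, of 18193 genes so measured. The other two, Acat2 and Soat2, were not analysed here. All 28 passed the filter on low values. RNA came from whole livers taken 4 weeks after birth from C57BL/6 mice and hybridized to 1 Affymetrix 3′ expression array per liver. The groups were 2 Control livers, labelled wild type, and 2 Cnot3KO livers. Cnot3 belongs to Ccr4-Not, a complex that trims the poly(A) tails of mRNAs, and its floxed gene was deleted by Cre recombinase under the Albumin promoter, so liver cells other than those of the hepatocyte lineage keep it. The study's methods allow several control genotypes, some with Cre or with floxed alleles, and do not say which these were.

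Cholesterol is built from acetyl-CoA through mevalonate and isoprenoid units to squalene, which is closed into lanosterol and trimmed to cholesterol in the sterol branch. When sterols in the endoplasmic reticulum run low, the escort protein Scap carries the transcription factor SREBP2, the product of Srebf2, to the Golgi, where it is cut and released to switch on most of these enzymes together. Insig1 and Insig2 hold Scap back when sterols are plentiful. The oxysterol receptor LXR, the product of Nr1h3, turns on export genes. In the liver, sterols leave to lipoproteins through Abca1 and to bile through the partner transporters Abcg5 and Abcg8, and synthesis follows feeding and the time of day.

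Levels are log2 intensities of the array, differences are Cnot3KO minus Control on the same scale, and ± gives the standard error (SE), with n = 2 livers per group. Adjusted p is from limma with Benjamini-Hochberg adjustment over all 38405 probe sets kept, and a gene was called at an adjusted p under 0.05. In whole livers, fewer cells of a type and less RNA per cell cannot be told apart. The deleted gene followed its label. Cnot3 was at 5.99 and 6.04 in the Control livers and 5.15 and 5.30 in the Cnot3KO livers (difference −0.79 ± 0.16, adjusted p = 0.0372). Its other probe set gave −0.40 (adjusted p = 0.218). Eif2s3y, a Y-linked gene looked at after the values were seen, lay at 7.34 to 7.90 on the 4 arrays, and Xist, the RNA of the inactive X chromosome, at 1.99 to 2.33. The 11 hepatocyte markers had a summed level of 16.44 to 16.48 on every array. Of them 0 were called, against 16.8% of all genes. Before adjustment, 1 was higher and 2 lower in limma at p under 0.05, against 3842 and 2077 of all 16749 genes.

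Promoter sequence of these genes is described here, and its part in their levels was not tested. The RefSeq windows (GRCm38.p6) run from 250 bases before to 50 after each annotated start, and 22 of the 28 measured genes, 13 of them enzymes of synthesis, had at least 1. The motifs searched, on both strands, were TCACNCCA, the core of a sterol regulatory element that SREBP2 binds, CCAAT, the letters bound by NF-Y, and GGGCGG, the letters bound by Sp1, and no match overlapped a match of another motif. CCAAT occurred in a window of 13 of these 13 enzyme genes, against 41.1% of all 27025 genes with a window. GGGCGG occurred in 12 of 13 (92.3%), against 38.2% of all genes. TCACNCCA occurred in Hmgcs1 and Srebf2 only among the 22 genes (9.09%), against 4.97% of all genes. These are matches of letters, not measured binding. Stretches upstream of the start are shown for genes named in the results below, 5′ to 3′ on the gene's strand, with motif letters in capitals (ATTGG and CCGCCC are CCAAT and GGGCGG on the other strand). The first pair holds TCACNCCA. The next 3 hold CCAAT near the start of enzyme genes. The last is the whole stretch between the starts of Abcg5 and Abcg8, read on the Abcg8 strand, which holds none of the 3 motifs, while CCAAT lies directly beyond it at the start of Abcg5 and again further upstream of Abcg8.
Hmgcs1, chr13:119690201-119690260, plus strand: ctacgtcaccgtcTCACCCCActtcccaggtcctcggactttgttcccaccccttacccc
Srebf2, chr15:82147094-82147153, plus strand: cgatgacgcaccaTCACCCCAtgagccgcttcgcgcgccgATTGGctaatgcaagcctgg
Idi1, chr13:8885526-8885605, plus strand: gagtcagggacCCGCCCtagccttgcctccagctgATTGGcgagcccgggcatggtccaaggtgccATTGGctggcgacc
Cyp51, chr5:4104698-4104777, minus strand: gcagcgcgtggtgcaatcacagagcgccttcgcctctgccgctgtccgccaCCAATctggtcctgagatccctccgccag
Mvd, chr8:122443423-122443502, minus strand: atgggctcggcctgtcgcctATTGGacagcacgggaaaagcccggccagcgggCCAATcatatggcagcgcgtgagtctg
Abcg5 and Abcg8, chr17:84683012-84683120, plus strand: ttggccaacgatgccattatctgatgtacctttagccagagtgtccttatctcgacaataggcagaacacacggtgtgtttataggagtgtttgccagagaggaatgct

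Of the 28 genes, 0 were called higher and 1 was called lower in Cnot3KO, while among all 16749 genes tested 12.2% were called higher and 4.64% lower (16.8% in either direction). Differences were positive for 13 and negative for 15 genes, and their median was −0.16, against 0.00 over all genes. At p under 0.05 before adjustment, limma had 1 higher and 6 lower, against 3842 and 2077 of all 16749 genes. The methods' t-test at the same threshold had 0 higher and 1 lower, against 3860 and 3977 of all 38405 kept probe sets. Both Cnot3KO livers lay above both Control livers for 2 genes (Mylip and Abcg5), where 34.8% of all genes did so. Both lay below for 8 genes (Cyp51, Tm7sf2, Hsd17b7, Srebf2, Insig1, Stard4, Abca1 and Abcg8), where 30.3% of all genes did so. These 10 of 28 compare with 65.1% of all genes, and the groups overlapped for the other 18. The genotype difference was larger than the difference between livers in each genotype for 9 of 28 genes (32.1%), against 53.7% of all genes.

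**Figure D1:**
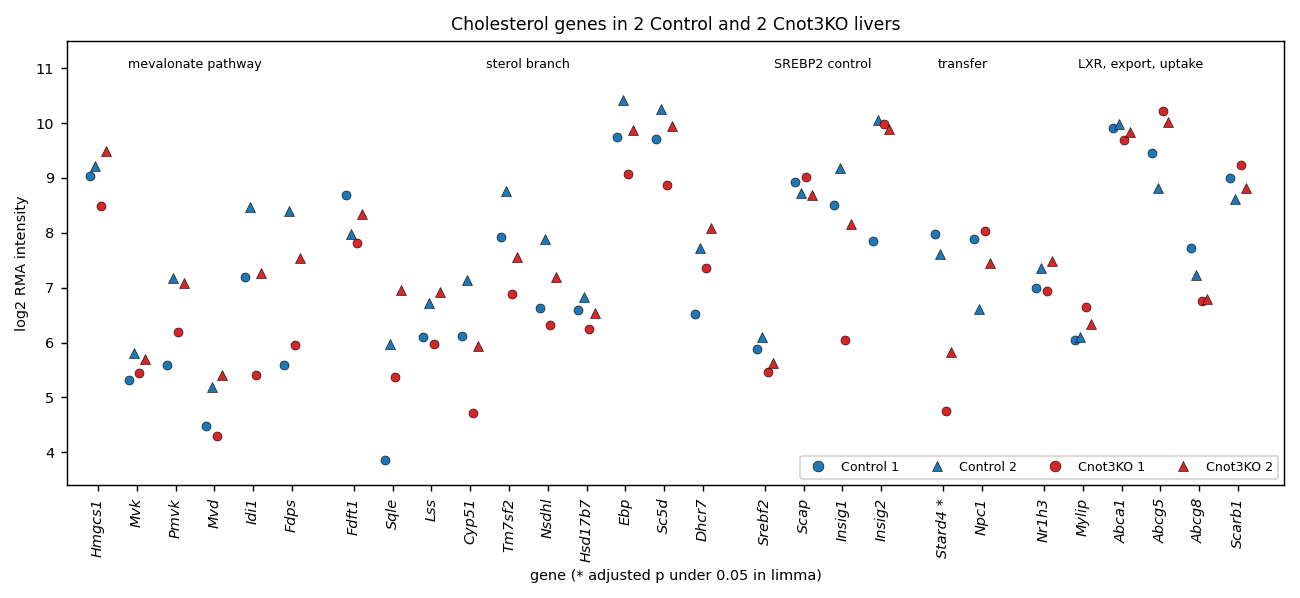
Level of each of the 28 genes on the 4 arrays (log2 intensity), ordered by role; blue is Control, red Cnot3KO, circles are replicate 1 and triangles replicate 2, and levels of different genes are not comparable. Stard4 (asterisk) was the 1 gene called, and for most enzymes the triangle lies above the circle of its colour.

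The enzymes of synthesis did not separate by genotype as a group. Of the 16 measured, 0 were called in either direction, against 16.8% of all genes. Before adjustment, 0 were higher and 2 lower in limma at p under 0.05, against 3842 and 2077 of all 16749 genes. Less bright probe sets of Sc5d and Lss were called lower, as given below. Of the 16 differences 10 were negative and 6 positive, and their median was −0.25. Both Cnot3KO livers were below both Control livers for Cyp51, Tm7sf2 and Hsd17b7 (18.8%, against 30.3% of all genes). They were above for 0, against 34.8% of all genes. These 3 were also the enzymes whose genotype difference exceeded the difference between livers in each genotype (18.8%, against 53.7% of all genes). The median SE of an enzyme's difference was 0.42, against 0.19 for all genes.

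The livers of one genotype differed from each other for nearly all of these enzymes, and in the same direction. Control 2 was above Control 1 for 15 of 16 enzymes (93.8%), against 51.6% of all genes, with Fdft1 as the exception (−0.71). Cnot3KO 2 was above Cnot3KO 1 for 16 of 16, against 48.2% of all genes. The median of these differences was 0.77 in Control and 0.93 in Cnot3KO. Their median size was 0.77 and 0.93, against 0.24 and 0.19 for all genes, and 0.38 and 0.32 for the 12 members that are not synthesis enzymes. The enzymes vary together, so their number is not a number of independent observations. Liver 2 was above liver 1 in both genotypes for 15 of 16 enzymes, against 28.9% of all genes, and below it in both for 0, against 29.0%. The replicate numbers name livers, and the labels do not pair them.

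**Figure D2:**
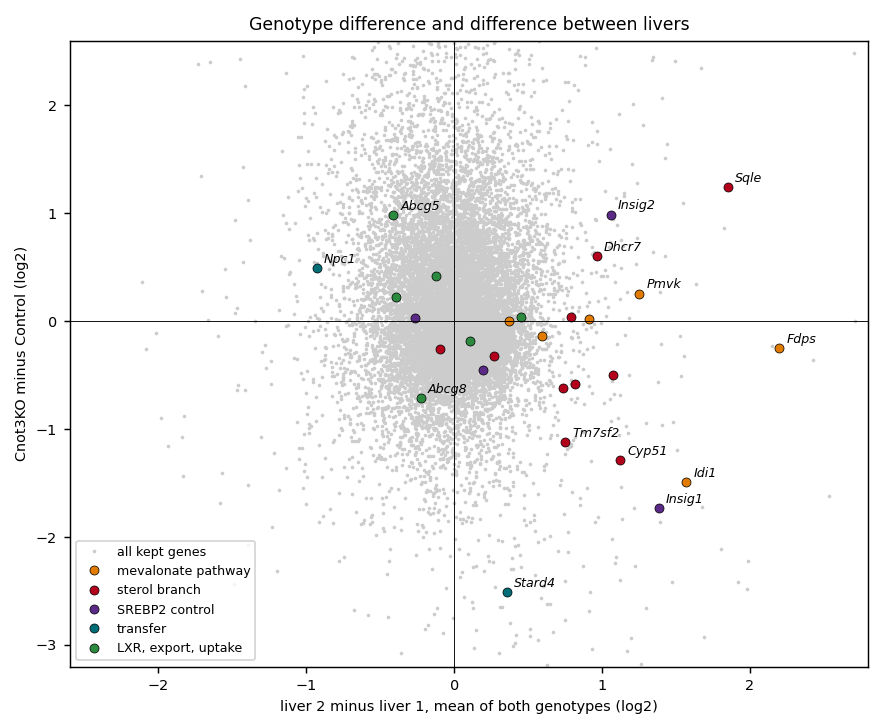
Cnot3KO minus Control (vertical, log2) against liver 2 minus liver 1 averaged over both genotypes (horizontal, log2) for the 28 genes in colour by role and all 16749 genes in grey; 276 of these genes lie outside the axes. Most enzymes lie to the right of 0 on the horizontal axis and on both sides of 0 on the vertical axis.

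The mevalonate pathway turns acetyl-CoA into farnesyl pyrophosphate, and its 6 measured enzymes overlapped between the groups. Differences ran from −1.49 (Idi1) to 0.25 (Pmvk), with 3 positive and 3 negative. Idi1, which interconverts the C5 isoprenoid units, was at 7.19 and 8.47 in Control and 5.41 and 7.27 in Cnot3KO. The lower Control liver and the higher Cnot3KO liver nearly met (−1.49 ± 0.70, adjusted p = 0.220), and the difference was −0.56 without Cnot3KO replicate 1 and −2.42 without Cnot3KO replicate 2. Its 2 probe sets gave −1.49 and −1.46. Fdps, which joins the units into farnesyl pyrophosphate, was at 5.59 and 8.41 in Control and 5.96 and 7.54 in Cnot3KO. It had the largest mean difference between livers of the 28 genes, 2.20, a value larger than that of 99.9% of all genes, and a genotype difference of −0.25 ± 0.99 (adjusted p = 0.887). Pmvk, the phosphomevalonate kinase, was at 5.58 and 7.18 in Control and 6.18 and 7.09 in Cnot3KO (0.25 ± 0.58, adjusted p = 0.797). Hmgcs1, which forms HMG-CoA, was at 9.04 and 9.21 in Control and 8.48 and 9.50 in Cnot3KO, so that the Cnot3KO livers lay on either side of both Control livers. Mvk, the mevalonate kinase, and Mvd, the decarboxylase, differed by 0.00 and 0.02 between genotypes.

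In the sterol branch 7 of 10 differences were negative. Sqle, squalene epoxidase, had a positive difference, at 3.86 and 5.97 in Control and 5.36 and 6.95 in Cnot3KO. The livers differed by 2.11 in Control and 1.59 in Cnot3KO, and the groups overlapped (1.24 ± 0.82, adjusted p = 0.354). Leaving out 1 array moved it between 0.19, without Control replicate 1, and 2.30, without Control replicate 2. Cyp51, the lanosterol demethylase that acts soon after squalene is closed into a ring, was at 6.11 and 7.14 in Control and 4.72 and 5.94 in Cnot3KO, with no overlap (−1.29 ± 0.51, adjusted p = 0.160). Its difference was −0.68 without Cnot3KO replicate 1 and −1.90 without Cnot3KO replicate 2. Tm7sf2, a sterol Δ14-reductase, was at 7.93 and 8.75 in Control and 6.88 and 7.56 in Cnot3KO, also with no overlap (−1.12 ± 0.36, adjusted p = 0.105). Hsd17b7, a ketosteroid reductase of the C4 demethylation step, was at 6.60 and 6.84 in Control and 6.25 and 6.55 in Cnot3KO. Ebp, the sterol isomerase, and Sc5d, the desaturase after it, differed by −0.62 and −0.58 with overlap. Dhcr7, which reduces 7-dehydrocholesterol to cholesterol, differed by 0.60, with 6.51 and 7.72 in Control and 7.36 and 8.08 in Cnot3KO. Fdft1 (squalene synthase), Lss (lanosterol synthase) and Nsdhl differed by −0.26, 0.04 and −0.50. None of these 10 was called.

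Values relative to the other enzymes were also described, a choice made after the values were seen. Each enzyme's level was taken minus the mean of the 16 enzymes on the same array, which was 6.82 and 7.75 in the Control livers and 6.53 and 7.49 in the Cnot3KO livers. These relative values sum to 0 on each array, so a rise of some requires a fall of others, and they were not tested. The median size of the difference between livers became 0.37 in Control and 0.25 in Cnot3KO. The median size of the relative genotype difference was 0.31. It exceeded both differences between livers for 8 of the 16. On levels that were not made relative, 53.7% of all genes did so. Both Cnot3KO livers were relatively above both Control livers for 5 enzymes and below for 6, and 5 overlapped. For levels of all genes these shares were 34.8% above and 30.3% below. Sqle was 2.96 and 1.77 below the enzyme mean in Control and 1.16 and 0.54 below it in Cnot3KO, a relative difference of 1.52. Dhcr7 was relatively higher by 0.88, from −0.30 and −0.03 in Control to 0.83 and 0.59 in Cnot3KO. Idi1 was relatively lower by a difference of −1.21, Cyp51 by −1.01 and Tm7sf2 by −0.84, each with both Cnot3KO livers below both Control livers.

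**Figure D3:**
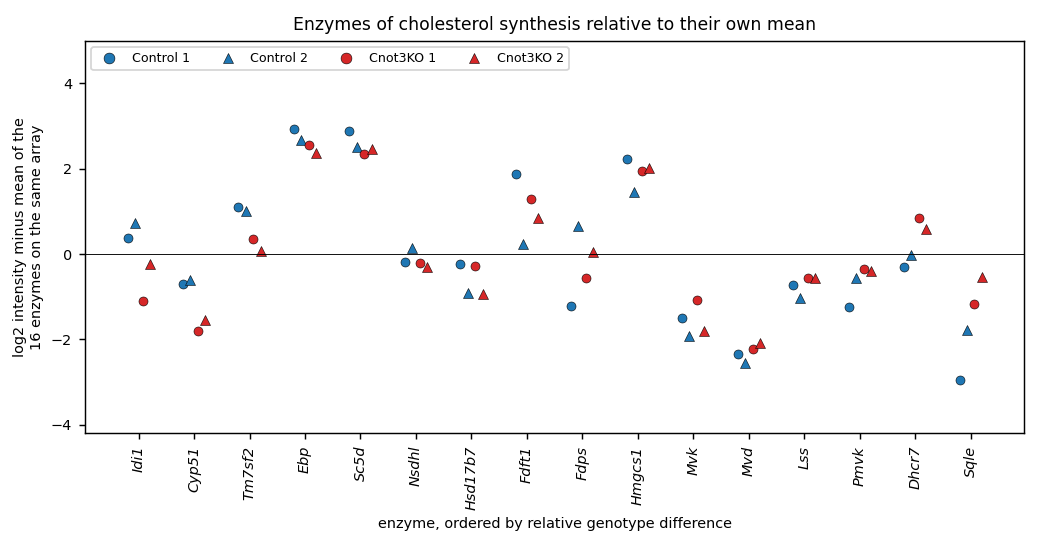
Level of each of the 16 enzymes minus the mean of the 16 on the same array (log2), ordered by the relative genotype difference; blue is Control, red Cnot3KO, circles replicate 1 and triangles replicate 2. Idi1, Cyp51 and Tm7sf2 at the left are relatively lower in Cnot3KO (−1.21, −1.01 and −0.84), Dhcr7 and Sqle at the right relatively higher (0.88 and 1.52).

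Among the genes that control SREBP2, Insig1 and Insig2 differed in opposite directions, and neither was called. Insig1, itself a target of SREBP2, was at 8.51 and 9.17 in Control and 6.05 and 8.16 in Cnot3KO. Both Cnot3KO livers were below both Control livers, with 2.10 between the Cnot3KO livers (−1.74 ± 0.69, adjusted p = 0.161). The value rested on the Cnot3KO livers, with −0.68 without Cnot3KO replicate 1 (adjusted p = 0.357) and −2.79, then called, without Cnot3KO replicate 2 (adjusted p = 0.0121). Insig2 was at 7.84 and 10.05 in Control and 9.98 and 9.89 in Cnot3KO (0.99 ± 0.69, adjusted p = 0.379). Here 3 livers were alike and Control 1 lay apart. Without Control replicate 1 the difference was −0.11 and without Control replicate 2 it was 2.09 and called (adjusted p = 0.0315). Srebf2, whose promoter stretch above holds TCACNCCA, was at 5.88 and 6.10 in Control and 5.45 and 5.62 in Cnot3KO (−0.45 ± 0.18, adjusted p = 0.158), and its other probe set gave 0.02. Scap differed by 0.03, a sign that turned under other scalings.

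Stard4, a protein that carries sterol between membranes, was the 1 member called. It was at 7.97 and 7.62 in Control and 4.75 and 5.82 in Cnot3KO, a difference of −2.51 ± 0.38, or 5.69-fold lower (adjusted p = 0.0169). Both Cnot3KO livers were below both Control livers by more than the 1.07 between them. Its 3 probe sets gave differences of −2.51 and −2.32, both called, and −1.30, not called. Leaving out either Control liver ended the call in limma at differences of −2.33 (without Control replicate 1, adjusted p = 0.0855) and −2.69 (without Control replicate 2, adjusted p = 0.0566). The methods' t-test did not pass after adjustment over all kept probe sets (adjusted p = 0.240). Npc1, which releases cholesterol from lysosomes, was at 7.89 and 6.62 in Control and 8.04 and 7.45 in Cnot3KO, with overlap (0.49, adjusted p = 0.502).

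Of the 6 genes of LXR, export and uptake, 0 were called, against 16.8% of all genes. Before adjustment, 1 was higher (Abcg5) and 1 lower (Abcg8) in limma at p under 0.05, against 3842 and 2077 of all 16749 genes. These partners work only together, and they differed in opposite directions. Each was measured by 1 probe set only. Abcg5 was at 9.45 and 8.82 in Control and 10.22 and 10.02 in Cnot3KO, a difference of 0.98 ± 0.25 (adjusted p = 0.0632). Abcg8 was at 7.73 and 7.24 in Control and 6.75 and 6.78 in Cnot3KO, a difference of −0.71 ± 0.22 (adjusted p = 0.0910). Neither gene overlapped between the groups. Abcg8 was called after centring on ribosomal protein genes (−0.85, adjusted p = 0.0486). On the same array, the log2 ratio of Abcg5 to Abcg8 was 1.72 and 1.59 in Control and 3.47 and 3.23 in Cnot3KO. This ratio was chosen after the values were seen and was not tested. It differed by 1.70 between genotypes, as follows from the opposite differences of Abcg5 and Abcg8, and by at most 0.24 between livers of one genotype. Only changes of the ratio can be read, because levels of different genes are not comparable. The starts of Abcg5 and Abcg8 lie on either side of the 109 bases printed above, and the genes run in opposite directions.

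The other 4 of these genes had differences from −0.19 to 0.42 and were not called. Abca1, the exporter of cholesterol to apolipoprotein A-I, was at 9.91 and 9.98 in Control and 9.69 and 9.83 in Cnot3KO (−0.19 ± 0.16, adjusted p = 0.482). Its 2 dimmer probe sets gave 0.45 and 0.89, in the other direction, at levels of 3.43 to 4.08 and 2.33 to 3.68. The median level of all probe sets was 3.09 to 3.14 on the 4 arrays. Mylip, a ubiquitin ligase that LXR induces, was at 6.05 and 6.10 in Control and 6.64 and 6.34 in Cnot3KO (0.42, adjusted p = 0.194). Scarb1, the receptor for high-density lipoprotein, differed by 0.22, and its 3 probe sets by 0.22 to 0.27. Nr1h3 differed by 0.04.

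Probe sets of one gene did not always give one answer. The 28 genes had 58 probe sets, 56 of them kept, and 15 genes had several. Of the 56, 0 were called higher and 4 lower, against 8.48% and 4.78% of all kept probe sets. Besides the pair of Stard4, these were 1 of Sc5d and 1 of Lss. For Sc5d the called probe set was at 7.38 and 8.69 in Control and 4.42 and 5.89 in Cnot3KO (−2.89 ± 0.62, adjusted p = 0.0402), while the brightest gave −0.58. For Lss the called probe set was at 4.73 and 4.43 in Control and 3.21 and 3.45 in Cnot3KO (−1.25 ± 0.19, adjusted p = 0.0183), while the brightest gave 0.04. Fdft1, Lss, Hsd17b7 and Scarb1 were represented by probe sets ending in _x_at or _s_at, which can match transcripts of more than 1 gene. Where on the transcript each probe set lies was not examined.

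**Figure D4:**
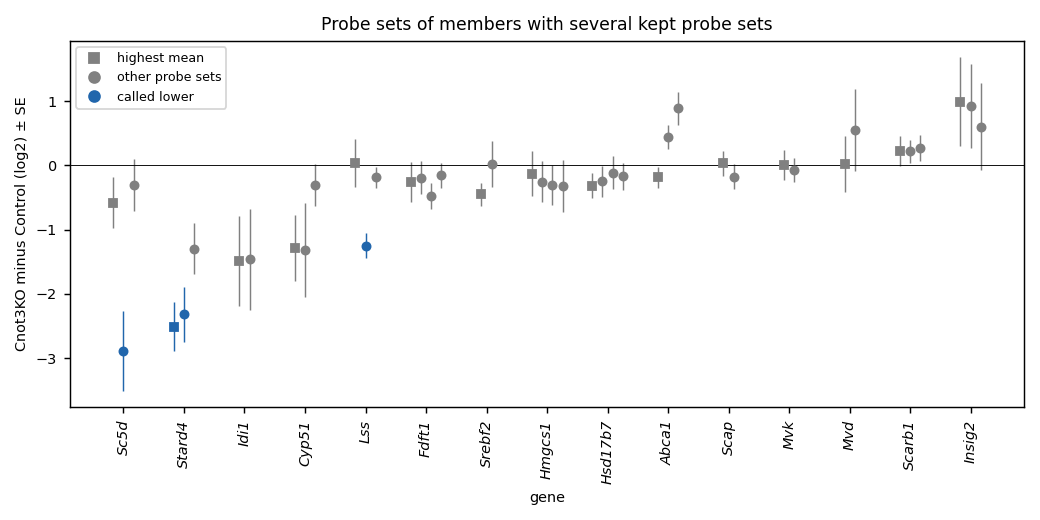
Cnot3KO minus Control (log2) ± SE for every kept probe set of the 15 genes that have several; squares mark the brightest probe set and blue those called lower. Probe sets of Sc5d, Lss and Abca1 give differing values (−2.89 to −0.31 for Sc5d, −1.25 to 0.04 for Lss and −0.19 to 0.89 for Abca1), while those of Idi1, Hmgcs1 and Scarb1 lie close together. The −0.31 of Sc5d and the positive values of Abca1 come from dim probe sets, at levels of 2.26 to 4.08.

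Other genes of sterol handling were a list of 44 with 32 measured. Of the 32, 2 were called higher and 6 lower, against 12.2% and 4.64% of all genes, and the median difference was 0.00. Gramd1b, which moves cholesterol from the plasma membrane to the endoplasmic reticulum, was at 2.90 and 2.37 in Control and 4.64 and 4.94 in Cnot3KO (2.16 ± 0.24, adjusted p = 0.00934). Abcg1, an LXR-induced sterol exporter, was at 5.82 and 5.56 in Control and 7.26 and 7.27 in Cnot3KO (1.57 ± 0.17, adjusted p = 0.00923). The genes called lower included Cyp7b1 and Cyp27a1, enzymes of the alternative route from cholesterol to bile acids. Cyp7b1 was at 9.81 and 11.11 in Control and 7.14 and 7.70 in Cnot3KO (−3.04 ± 0.46, adjusted p = 0.0172). Cyp27a1 was at 10.03 and 10.39 in Control and 9.25 and 9.11 in Cnot3KO (−1.03, adjusted p = 0.0294). Pgrmc1, a heme-binding partner of cytochromes P450, fell by 1.12 (adjusted p = 0.0236), and Fitm2, a lipid droplet protein, fell by 1.11 (adjusted p = 0.0450). The other two called lower were Cyb5r3 and Lcat. Control 2 was above Control 1 for 11 of these 32 genes, and Cnot3KO 2 was above Cnot3KO 1 for 16.

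Values that moved with the difference between livers are given for other lists. Of 15 fed-state lipogenic genes, liver 2 was above liver 1 in both genotypes for 12, against 28.9% of all genes. In Cnot3KO 0 of the 15 were called higher and 5 lower, against 12.2% and 4.64% of all genes. The median of liver 2 minus liver 1 over all 15 was 0.52 in Control and 0.81 in Cnot3KO. Of 12 fasting response genes liver 2 was above liver 1 in both genotypes for 2 and below it in both for 4. Among all genes 28.9% were above in both and 29.0% below in both. Of the 12, 1 was called higher and 0 lower, against 12.2% and 4.64% of all genes. Of 15 clock genes 0 were called, against 16.8% of all genes. Before adjustment, 0 were higher and 2 lower in limma at p under 0.05, against 3842 and 2077 of all 16749 genes. For clock genes, liver 2 was above liver 1 in both genotypes for 5 and below it in both for 7. The median size of their difference between livers was 2.77 in Control and 0.96 in Cnot3KO. Dbp was at 10.37 and 3.64 in Control and 7.41 and 5.49 in Cnot3KO. Arntl was at 2.40 and 7.24 in Control and 5.02 and 6.27 in Cnot3KO. Nr1d2 was at 9.40 and 5.85 in Control and 8.10 and 5.83 in Cnot3KO. All 3 are components or outputs of the circadian clock, and replicate 2 differed from replicate 1 in the same direction in both genotypes for each. The labels give neither hour of collection nor feeding state, and the part of either in the enzymes' values was not tested.

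**Figure D5:**
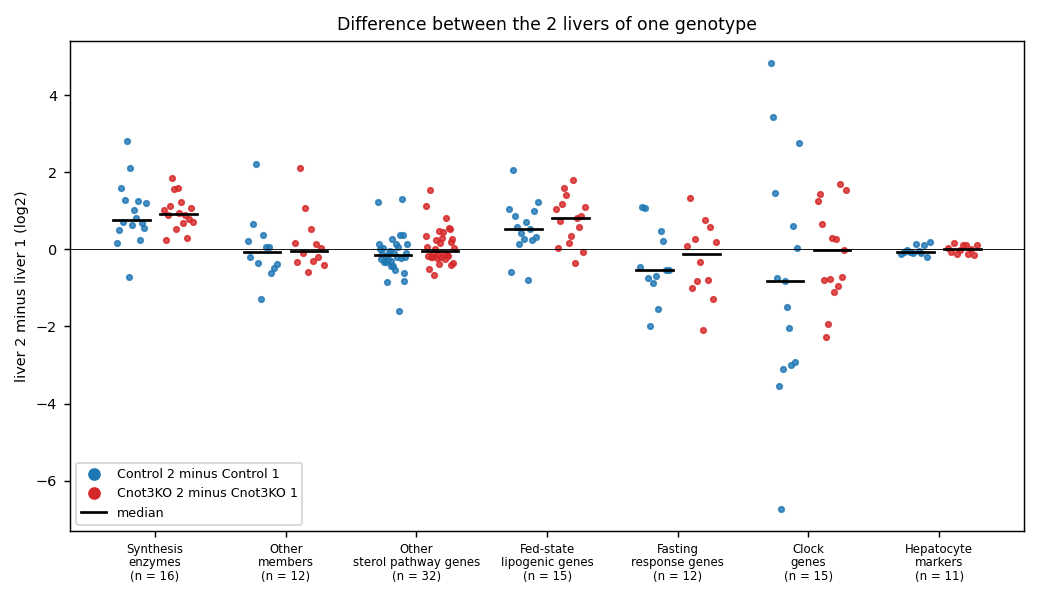
Liver 2 minus liver 1 (log2) in Control (blue) and Cnot3KO (red) for each gene of the lists named below the axis, with the median as a black bar. The enzymes of synthesis lie above 0 with 1 exception in Control, the hepatocyte markers stay near 0 (medians −0.06 and 0.02), and clock genes spread widely in both directions.

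Most markers of macrophages, of cholangiocytes and of stellate cells and fibroblasts were called higher in Cnot3KO, where 12.2% of all genes were. Of 15 macrophage markers 9 were called higher, and their summed level was 11.46 to 11.49 in Control and 12.46 to 12.62 in Cnot3KO. Of 8 cholangiocyte markers 6 were called higher, at 5.81 to 6.03 and 9.70 to 10.18. Of 10 stellate and fibroblast markers 7 were called higher, at 10.83 to 11.14 and 12.12 to 12.54, while Des, Lrat and Reln were not called (0.07, −0.19 and 0.22). Of 10 endothelial markers 0 were called, at 9.94 to 10.26 and 10.04 to 10.09. Before adjustment, 0 passed p under 0.05 in limma either, where 3842 of all 16749 genes were higher and 2077 lower. None of these lists had a gene called lower. Abcg1, Abca1 and Stard4 are also expressed outside hepatocytes, and the part of these cells in the genotype differences above was not tested.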

How the data were processed

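Total RNA of 4 whole livers was measured on Affymetrix arrays, 1 per liver. The authors made the deposited values by RMA (Robust Multi-array Average). It corrects background, normalizes between arrays and summarises probes, and its version is not given in the sources used here. The deposited table holds linear intensity, from 1.27 to 16933 (the number of arrays limits the precision), and its log2 was taken without a constant. Because RMA normalizes arrays to a common distribution before it summarises probes, a shift of all genes would not show. The summarised values still differed in distribution. Their 75th percentile was 5.35 and 5.28 in the Control livers and 5.53 and 5.51 in the Cnot3KO livers.

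Probe sets below the 20th percentile on all 4 arrays were dropped, the study's own lower cut-off, which left 38405 of 45037. Each gene was represented by the probe set with the highest mean among those naming it alone. Groups were compared with limma 3.58.1 (lmFit, eBayes; R 4.3.3), with 2-sided p and 5.40 degrees of freedom. The median SE was 0.19. The fit was tested on simulated data. These had independent noise in each value, so shifts shared by many genes of a liver were not simulated.

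Motifs were counted in RefSeq promoter windows of GRCm38.p6. Python 3.11.15, numpy 2.4.6, pandas 2.3.3 and matplotlib 3.10.9 were used.

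The members and gene lists were chosen with earlier results of these data known. Named with array values were the called gene, the 6 largest differences not called and the 6 largest mean differences between livers, besides genes that show a role. Of the other sterol genes the 6 called with the largest difference, and of the fed-state, fasting and clock lists the 3 with the largest difference between livers, were described. The other genes named, the relative enzyme values and the ratio of Abcg5 to Abcg8 were chosen after their values were seen.

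As alternatives, the comparison was run unfiltered, for probe sets with means over the 50th percentile, after quantile normalization, after centring (array medians, ribosomal protein genes), with replicate as a block, with an intensity-dependent prior, leaving out _x_at and _s_at probe sets, on averages over each gene's probe sets, as the methods' t-test, and without each array.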

Additional observations from a re-analysis of the deposited data

How the results depend on the processing

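Over all alternatives, 368 of 420 differences kept their direction and side of the threshold, 41 changed sign, 8 became called with the same sign and 3 lost the call. Each that changed sign belonged to a gene not called in the report, and 1 of them became called (Lss, below). Probe sets called higher (3258) and lower (1837) became 0 and 1 with the methods' t-test after adjustment, and 3860 and 3977 at its unadjusted p under 0.05. Centring on 50 ribosomal protein genes, which moved the median of all genes by −0.14, gave 2760 higher and 3169 lower, a split towards lower. Leaving out 1 array gave 1194 to 1973 higher and 508 to 1394 lower. Of the members, 0 were called higher and 1 lower. With the replicate number as a block these counts were 2 (Sqle, adjusted p = 0.0389, and Abcg5, adjusted p = 0.0491) and 4 (Stard4, adjusted p = 0.0369, Cyp51, 0.0270, Tm7sf2, 0.0312, and Idi1, 0.0315). The labels do not say whether same-numbered livers share more than a number. Their deviations from the group means had a correlation of 0.232 over all kept probe sets, from 2 livers per group. The count lower was 2 with ribosomal centring (Abcg8) or leaving out _x_at and _s_at probe sets (Lss, −1.25, adjusted p = 0.0182) and 0 with the adjusted t-test, and leaving out 1 array gave 0 to 1 higher and 0 to 2 lower. Leaving out 1 array moved the median difference between −0.49 and 0.011 for the members and between −0.59 and 0.065 for the enzymes, with positive values without Cnot3KO replicate 1 in both, and without Control replicate 2 for the enzymes (0.04). The median difference between livers of the enzymes stayed between 0.77 and 0.99 in Control and between 0.89 and 0.98 in Cnot3KO under 5 alternatives.

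Signs near 0 turned with the scaling. With quantile normalization again, array medians and ribosomal centring in turn, Mvk gave −0.20, −0.049 and −0.14, Mvd −0.18, −0.033 and −0.12, Lss −0.13, −0.015 and −0.10, Scap −0.0033, −0.017 and −0.10, and Nr1h3 −0.052, −0.0095 and −0.10. With probe sets averaged per gene Mvk gave −0.036, Lss −0.47, Scap −0.073 and Abca1 0.38. Leaving out 1 array moved Hmgcs1 between −0.64 and 0.37, Mvk between −0.24 and 0.25, Pmvk between −0.54 and 1.05, Mvd between −0.54 and 0.58, Fdps between −1.66 and 1.16, Fdft1 between −0.61 and 0.10, Lss between −0.44 and 0.51, Nsdhl between −1.13 and 0.13, Dhcr7 between −0.0018 and 1.21, Scap between −0.13 and 0.20, Insig2 between −0.11 and 2.09, Npc1 between −0.15 and 1.13 and Nr1h3 between −0.23 and 0.31. Without a change of sign, it moved Idi1 between −2.42 and −0.56, Sqle between 0.19 and 2.30, Cyp51 between −1.90 and −0.68, Tm7sf2 between −1.53 and −0.71, Ebp between −1.01 and −0.22, Sc5d between −1.12 and −0.04, Insig1 between −2.79 and −0.68 and Stard4 between −3.04 and −1.98. A lone array was assumed to vary like the other group. The causes were not tested.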
